A study of Mus musculus with 9 samples.

Results

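The NRF2 antioxidant response and the main antioxidant enzymes were followed in mouse liver through 10 genes: Nqo1, Gclc, Gclm, Hmox1, Txnrd1, Srxn1, Cat, Sod2, Gpx1 and Nfe2l2. These 10 genes were chosen by symbol, and all 22 probe sets annotated to them were read, out of 18193 genes on the array with a probe set of 1 symbol. Each gene had at least 1 probe set that passed the filter on low signals, which asks that a signal exceed the median of its array on 3 arrays or more, and 20 of the 22 probe sets passed. The 2 that did not were the dimmest ones of Txnrd1 and Nfe2l2. The brightest kept probe set stands for a gene unless another is named, and levels are compared only within a probe set.

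The arrays measured whole livers of female mice of the MRL +/+ strain, which tends to autoimmunity, 1 mouse to an array and 3 mice to a group, so that p-values measure the spread between mice. One group received dichloroacetyl chloride (DCAC), an acyl chloride, and another dichloroacetic anhydride (DCAA), each at 0.2 mmol/kg in corn oil by intraperitoneal injection over 6 weeks. The third group received corn oil alone, as the design text states, although its labels call these mice untreated. Mice were 4 weeks old when bought and 11 weeks old at death, 24 h after the last dose. Both compounds carry the dichloroacetyl group and differ in the leaving group, which is chloride in DCAC and dichloroacetate in DCAA.

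NRF2, the protein product of Nfe2l2, is a transcription factor that KEAP1 normally holds for degradation. Electrophiles and oxidants modify KEAP1, NRF2 then accumulates, pairs with small MAF proteins and binds antioxidant response elements in front of its target genes. In liver the classical targets include Nqo1, Gclc, Gclm, Txnrd1 and Srxn1, and Hmox1, which other factors such as BACH1 also control. Cat, Sod2 and Gpx1 encode the enzymes that remove hydrogen peroxide, mitochondrial superoxide and peroxides, and are abundant in liver without induction.

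The core of the antioxidant response element, TGACNNNGC, was looked for on both strands of the RefSeq promoters (GRCm38.p6), windows from 250 bases before to 50 after a gene's start. The table holds 10 promoters of 8 of the 10 genes, and 4 promoters of 4 genes carry the core, against 12.38% of all 32817 promoters of the same length. Those 4 genes are Nfe2l2, Gclm, Txnrd1 and Srxn1; in Srxn1 the match lies after the start, at bases 29 to 37. The other three matches are shown with their surroundings because they belong to the regulator itself and to the members whose signals lay farthest above and below corn oil with DCAA outside Hmox1. Each is read 5′ to 3′ on the strand of its gene, with the core in capitals, and in Gclm and Txnrd1 the core runs on the other strand and so appears as its reverse complement.
Nfe2l2, chr2:75704870-75704913, minus strand, core 240 to 232 bases before the start: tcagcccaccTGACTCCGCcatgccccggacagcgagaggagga
Gclm, chr3:122245398-122245456, plus strand, core 134 to 126 bases before the start: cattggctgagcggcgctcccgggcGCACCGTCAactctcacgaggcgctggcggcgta
Txnrd1, chr10:82859089-82859147, plus strand, core 92 to 84 bases before 1 of its 3 starts: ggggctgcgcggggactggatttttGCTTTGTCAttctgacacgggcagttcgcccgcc
A match is a description of these letters, not a site at which binding was measured. The windows of Nqo1, Cat, Gpx1 and Sod2 held no match, which says nothing of bases farther from the start. Gclc and Hmox1 had no promoter to search.

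The array labelled control 2 went against its label and was kept apart. Its summed signal over 12 kidney tubule markers was 136694, against 1818 to 3180 on the other 8 arrays, and all 12 markers were above every other array. Its sum over 12 hepatocyte markers was 23115, against 461999 to 650017. On the other 8 arrays none of the 12 hepatocyte markers was at the floor throughout. Among these 8, the manufacturer's pyruvate carboxylase probe sets gave a 3'/5' ratio, which grows when RNA or labelling falls short of the 5' end, of 6.43 to 12.8 on DCAC 3 and all 3 DCAA arrays. The ratio was 2.85 to 3.99 on DCAC 1, DCAC 2 and both corn oil arrays, so that DCAA and a high ratio cannot be told apart except through DCAC 3. Neutrophil markers, 9 genes of which 8 passed the filter, summed to 2790 to 3076 with DCAC and 1970 to 4653 with DCAA. In corn oil they summed to 1471 and 1769. T and NK cell markers, 7 genes of which 4 passed, summed to 1131 to 1167 and 1026 to 1215, against 1724 and 2738. Among them Ccl5, Gzma, Gzmb and Nkg7 were highest on control 3, and Cd3e, Cd3g and Cd8a on a treated array. The part of these markers in the results was not tested. In these whole livers, fewer cells of a type and less RNA per cell cannot be told apart either.

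None of the 10 genes passed in any comparison (limma, adjusted p under 0.05 over 24531 probe sets). With DCAC against corn oil 0 of 10 passed, where 0.0569% of all genes did, and the smallest adjusted p was 0.967. With DCAA 0 of 10 passed, where 0.122% of all genes did, and the smallest adjusted p was 0.24, for Gclm. With both compounds together 0 of 10 passed, where 0.0976% did, and between DCAC and DCAA 0 of 10 passed, where 0.00813% did.

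At an unadjusted p under 0.05, 1 of 10 was higher with DCAC (Gclm) and 0 lower, where 2.86% of all genes were higher and 2.61% lower. With DCAA 1 was higher (Gclm) and 1 lower (Txnrd1), where 7.00% were higher and 6.24% lower. With both compounds 1 was higher (Gclm) and 0 lower, where 4.77% were higher and 3.23% lower, and between DCAC and DCAA there were 0, where 4.90% were higher and 4.20% lower. With DCAC 3 of the 10 genes lay above both corn oil arrays on all DCAC arrays and none lay below, where 12.9% of all genes lay above and 11.6% below. With DCAA 3 lay above and 2 below, where 17.1% lay above and 15.5% below. The 3 genes above were the same with each compound, Nqo1, Gclm and Srxn1, and both comparisons share their corn oil arrays. Over all genes, 6.00% lay above both corn oil arrays on all 6 treated arrays. The dimmer probe sets of Srxn1 stood on the other side, and the second one of Gclm overlapped corn oil. The 10 genes were chosen with earlier results of these data known. No gene of the 10 lay below corn oil on all 6 treated arrays, where 5.47% of all genes did. The median log2 difference of the 10 was 0.14 with DCAC and 0.098 with DCAA, against -0.0012 and -0.0002 over all 12293 genes.

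The intervals bound what these mice could hide. The highest upper 95% bound among the 10 genes was a 1.81-fold higher signal with DCAC (Nqo1) and 1.73-fold with DCAA (Gclm). The lowest lower bounds belonged to Hmox1, at 0.386 of the corn oil signal with DCAC and 0.336 with DCAA. These bounds hold for the brightest probe sets in the fit without a block. Blocking on the 3'/5' ratio widened or moved some of them. With this block each DCAC value against corn oil rests on DCAC 1 and DCAC 2, and each DCAA value depends on DCAC 3 as well. The widest blocked interval was that of Hmox1 with DCAA, at -2.13 to 1.06 in log2.

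**Figure D1:**
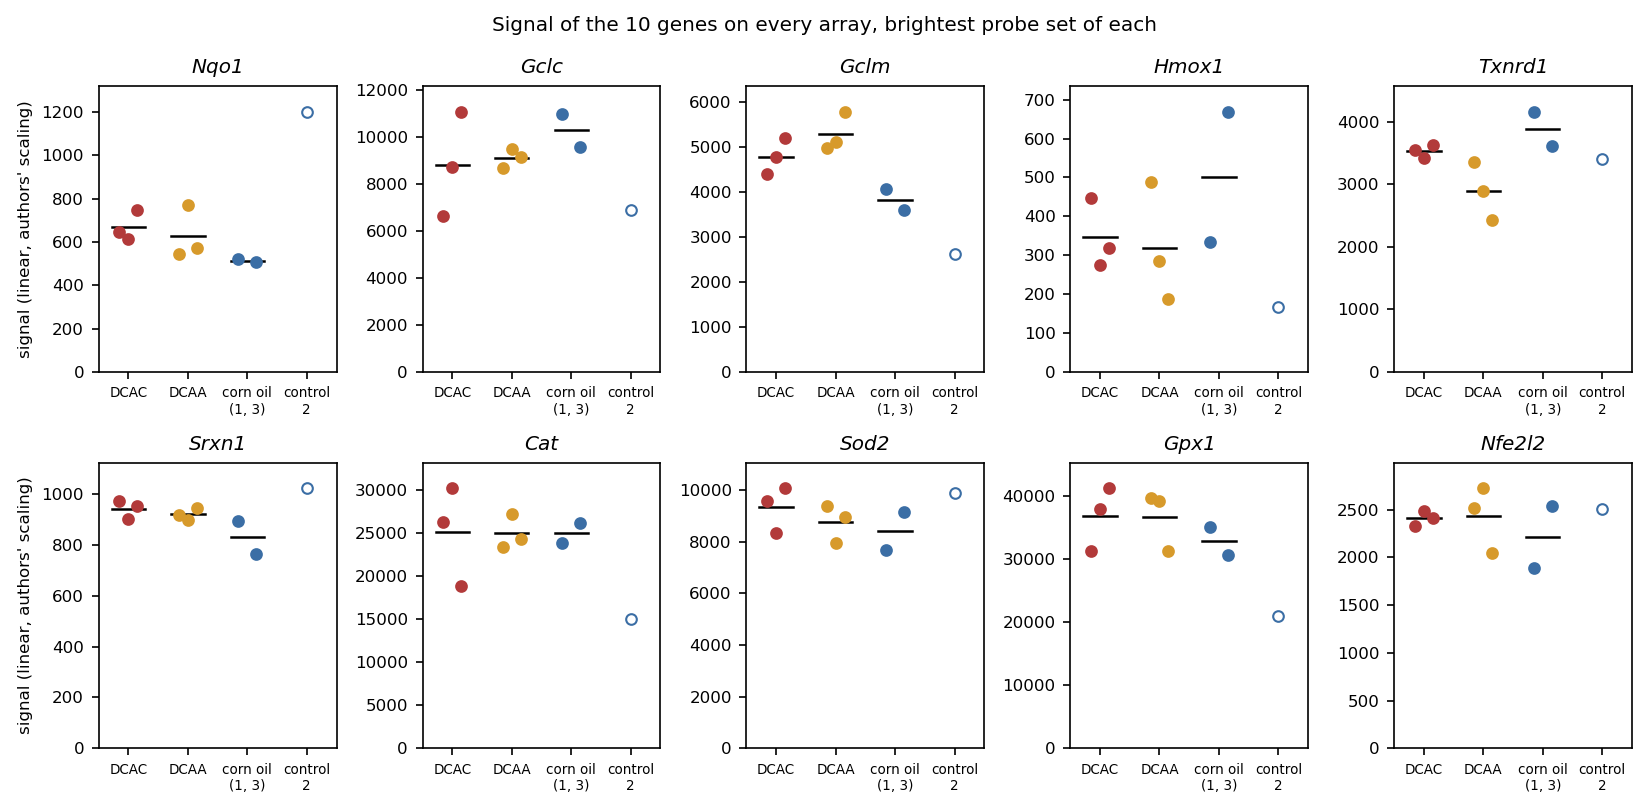
Signal on a linear scale for the brightest probe set of each gene, 1 point per array, with bars at the means of the 3 DCAC, 3 DCAA and 2 corn oil arrays and control 2 as an open point. Gclm is the gene with the clearest gap, 4393 to 5778 on the 6 treated arrays and 3593 and 4055 on corn oil.

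**Figure D2:**
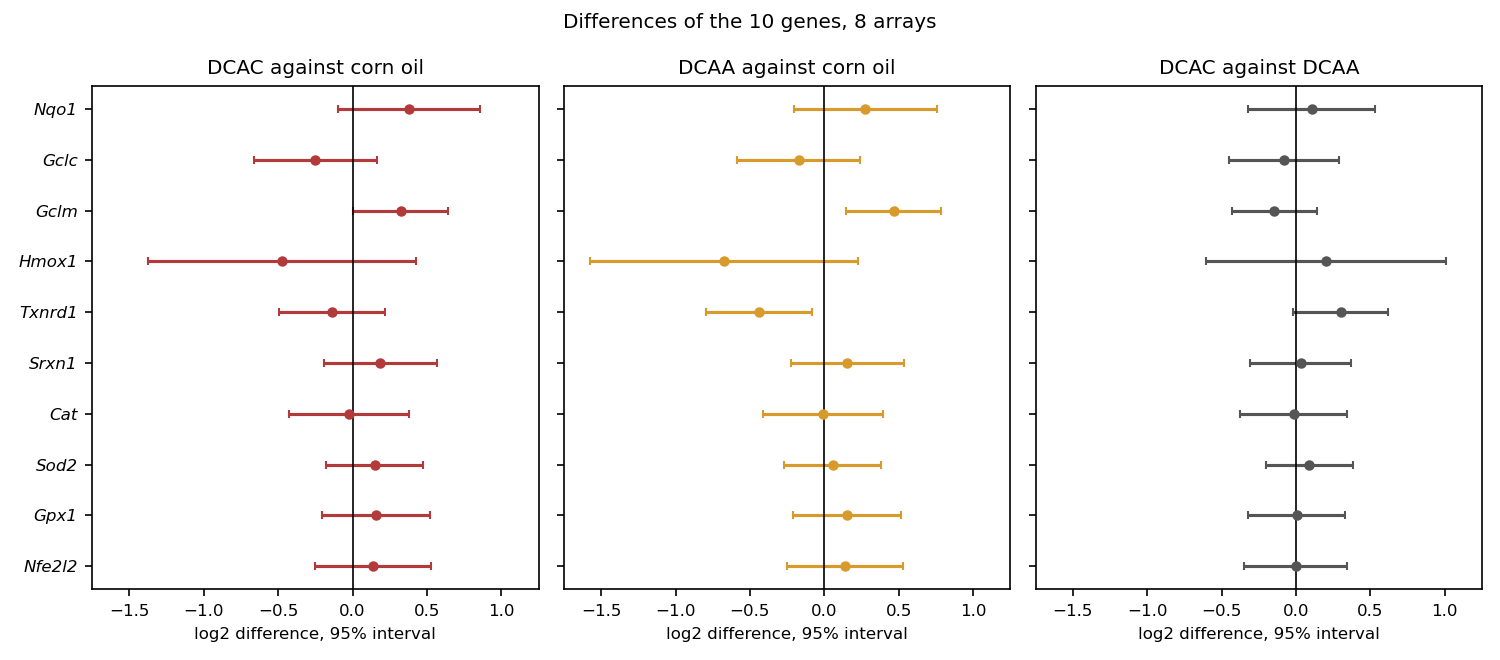
Log2 differences of the 10 genes with 95% intervals from limma for DCAC against corn oil, DCAA against corn oil and DCAC against DCAA. Points right of the line are higher in the group named first; the intervals of Gclm lie above 0 with each compound, that of Txnrd1 below 0 with DCAA, and no difference passed after adjustment.

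Nfe2l2, which encodes NRF2 itself, read 2331, 2483 and 2413 on the DCAC arrays and 2515, 2720 and 2048 on the DCAA arrays. Corn oil arrays read 1891 and 2537. The groups overlapped, and the 2 corn oil arrays lay nearly as far apart as the lowest and highest treated arrays. The log2 difference was 0.14 with DCAC (95% interval -0.25 to 0.52) and 0.14 with DCAA (-0.25 to 0.53), with limma adjusted p of 0.987 and 0.787. Since NRF2 is controlled mainly at the protein level, this transcript does not measure its activity.

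Glutamate-cysteine ligase catalyses the first, rate-limiting step of glutathione synthesis and consists of a catalytic subunit, from Gclc, and a modifier subunit, from Gclm. Gclm read 4393, 4768 and 5193 with DCAC and 4977, 5115 and 5778 with DCAA, against 4055 and 3593 in corn oil livers. All 6 treated arrays were above both corn oil arrays. Mean signals were 4785 ± 400 in the 3 DCAC livers, 5290 ± 428 in the 3 DCAA livers and 3824 ± 327 in the 2 corn oil livers (± SD). In log2 units the difference was 0.32 with DCAC (SE 0.15, interval 0.0037 to 0.64, limma adjusted p = 0.967) and 0.47 with DCAA (SE 0.15, interval 0.15 to 0.79, adjusted p = 0.24). Both compounds against corn oil gave 0.40 (SE 0.14, adjusted p = 0.559), and 6.00% of all genes were above both corn oil arrays on all 6 treated arrays.

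The second Gclm probe set was less clear. It read 2258, 2227 and 2553 with DCAC and 2387, 3226 and 2782 with DCAA, against 2072 and 2537 in corn oil. These groups overlapped, and the differences were 0.031 with DCAC and 0.28 with DCAA. A fit that blocks on high or low 3'/5' ratio gave the brighter probe set 0.26 with DCAC and 0.29 with DCAA (limma adjusted p = 0.906). Of the arrays with low ratios, DCAC 1 and DCAC 2 (4393 and 4768) lay above both corn oil arrays.

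Gclc ran the other way. It read 6638, 8727 and 11073 with DCAC, a wide spread, and 8690, 9484 and 9176 with DCAA, against 11002 and 9575 in corn oil. All 3 DCAA arrays were below both corn oil arrays, whereas DCAC 3 was above them. Gclc thus differed by -0.25 in log2 with DCAC (interval -0.66 to 0.16) and -0.17 with DCAA (interval -0.58 to 0.24), with limma adjusted p of 0.978 and 0.747. Blocking on the 3'/5' ratio gave -0.43 with DCAC (interval -0.79 to -0.077) and -0.71 with DCAA (interval -1.25 to -0.17, adjusted p = 0.728). By the dimmer probe set all 6 treated arrays, at 2652 to 3944, were below the 4231 and 4514 of corn oil, and the differences were -0.45 with DCAC (adjusted p = 0.946) and -0.25 with DCAA (0.594). The 2 subunits of the enzyme thus had opposite signs by both probe sets of each, and neither passed. With DCAC the second Gclm probe set was near 0, at 0.031 (interval -0.35 to 0.41), and the brightest Gclc probe set overlapped corn oil.

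Nqo1 encodes a quinone reductase and is the target most used as a readout of NRF2. It read 648, 614 and 750 with DCAC and 544, 773 and 571 with DCAA, against 522 and 505 in corn oil. All treated arrays were above both corn oil arrays, DCAA 1 by a small margin. Mean signals were 670 ± 70.7 in the 3 DCAC livers and 629 ± 125 in the 3 DCAA livers, against 514 ± 11.9 in the 2 corn oil livers (± SD). Nqo1 was higher by 0.38 in log2 with DCAC (interval -0.099 to 0.86, limma adjusted p = 0.967) and 0.28 with DCAA (interval -0.20 to 0.75, adjusted p = 0.637). Blocking on the 3'/5' ratio gave Nqo1 0.30 with DCAC and 0.026 with DCAA (interval -0.77 to 0.82).

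Hmox1 encodes the inducible heme oxygenase and is also strongly expressed by macrophages that clear red cells. It varied most of the 10 over the 8 arrays, with an SD of 0.57 in log2 units. The signal was 447, 275 and 320 with DCAC and 487, 285 and 187 with DCAA, against 333 and 668 in corn oil. The groups overlapped, and the highest array was control 3. Hmox1 stood at -0.47 in log2 with DCAC (interval -1.37 to 0.43) and -0.67 with DCAA (interval -1.57 to 0.23), with limma adjusted p of 0.981 and 0.535. Without control 3 the differences became 0.031 with DCAC and -0.17 with DCAA, and without control 1 they became -0.97 and -1.17, so that the size with each compound, and the sign with DCAC, rested on single corn oil arrays. Blocking on the 3'/5' ratio gave Hmox1 -0.43 with DCAC (interval -1.47 to 0.62) and -0.54 with DCAA (interval -2.13 to 1.06).

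Markers of Kupffer cells and macrophages were uneven across the same arrays. Their summed signal over 11 of 11 genes, none at the floor on all 8 arrays, was 10784 to 17094 with DCAC and 13938 to 15601 with DCAA. It was 10494 on control 1 and 37105 on control 3, the array with the highest Hmox1. All 11 stood lower with DCAC in the fit and 10 of 11 with DCAA, with medians of -0.48 and -0.57, and none passed. Their part in the Hmox1 values was not tested.

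Thioredoxin reductase 1, the cytosolic selenoenzyme encoded by Txnrd1, keeps thioredoxin reduced. Its signal was 3545, 3421 and 3626 with DCAC and 3357, 2894 and 2426 with DCAA, against 4160 and 3618 in corn oil. The DCAA arrays were below every other array of the 8, and DCAC 3 lay just above the lower corn oil array. In log2, Txnrd1 stood at -0.44 with DCAA (SE 0.16, interval -0.79 to -0.080, limma adjusted p = 0.312) and -0.14 with DCAC (interval -0.49 to 0.22, adjusted p = 0.987). Blocking on the 3'/5' ratio left the DCAA difference at -0.49 (adjusted p = 0.856).

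A dimmer Txnrd1 probe set had the widest difference among all 20 kept. It read 515, 321 and 320 with DCAC and 331, 56.2 and 78.5 with DCAA, against 458 and 466 in corn oil. The low values came from DCAA 2 and DCAA 3 alone, while DCAA 1 lay among the DCAC arrays, and 1 of the 8 arrays was at the floor of its 25th percentile. The log2 difference with DCAA was -1.99 (SE 0.58, interval -3.25 to -0.72, adjusted p = 0.216).

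Sulfiredoxin, encoded by Srxn1, restores overoxidised peroxiredoxins. Its brightest probe set read 971, 901 and 953 with DCAC and 916, 899 and 945 with DCAA, against 893 and 765 in corn oil. All treated arrays were above both corn oil arrays, the lowest by a few units of signal. The log2 difference was 0.19 with DCAC (interval -0.19 to 0.57) and 0.15 with DCAA (interval -0.23 to 0.53), with limma adjusted p of 0.981 and 0.755. Its 3 dimmer probe sets all stood on the other side, at -0.26 to -0.43 with DCAC and -0.59 to -0.76 with DCAA, none passing, so that the direction of Srxn1 depends on the probe set.

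**Figure D3:**
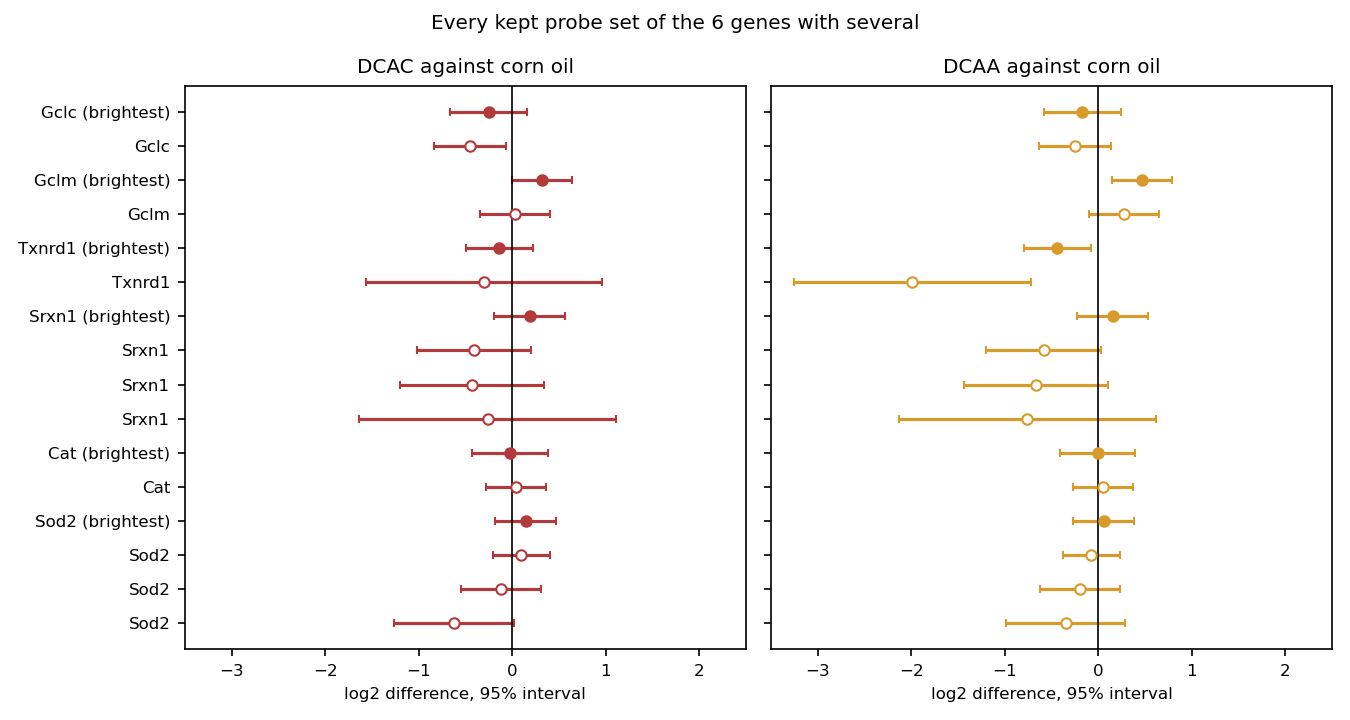
Log2 differences with 95% intervals for DCAC and for DCAA against corn oil, over all 16 kept probe sets of the 6 genes that have more than 1, with the brightest filled. The probe sets of Gclc, Gclm and Txnrd1 keep 1 direction in each panel, while those of Srxn1, Cat and Sod2 lie on both sides of 0. The dimmer one of Gclm lies close to 0 with DCAC, at 0.031.

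The enzymes that remove reactive oxygen directly had differences of at most 0.16 by their brightest probe sets in the fit without a block. Catalase, from Cat, read 26287, 30176 and 18841 with DCAC and 23363, 27229 and 24275 with DCAA, against 23873 and 26200 in corn oil. The DCAC arrays spanned the whole range, with DCAC 3 the lowest of all 8. The log2 difference was -0.022 with DCAC (interval -0.43 to 0.38) and -0.0062 with DCAA (interval -0.41 to 0.40), with limma adjusted p of 0.995 and 0.994. Blocking on the 3'/5' ratio turned these to 0.17 with DCAC and 0.57 with DCAA (interval 0.092 to 1.06, adjusted p = 0.771). That DCAA value depends on DCAC 3. The second Cat probe set, without the block, stood at 0.046 with DCAC and 0.050 with DCAA, with overlapping groups.

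Sod2, the mitochondrial manganese superoxide dismutase, read 9573, 8344 and 10061 with DCAC and 9395, 7935 and 8939 with DCAA, against 7693 and 9159 in corn oil. The groups overlapped, with log2 differences of 0.15 (interval -0.18 to 0.47) and 0.057 (interval -0.27 to 0.38). Sod2 has 4 kept probe sets, and with DCAA the brightest alone stood above 0, the dimmer ones at -0.073, -0.19 and -0.35. With DCAC the dimmer ones stood at 0.099, -0.12 and -0.62, so that the direction of Sod2 depends on the probe set. By the dimmest, all 6 treated arrays lay below both corn oil arrays, at 183 to 303 against 353 and 387. None of these passed (limma adjusted p 0.657 or higher). With the ratio block the brightest probe set turned to -0.11 with DCAA.

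Gpx1, the selenium-dependent glutathione peroxidase of the cytosol, read 31338, 38003 and 41216 with DCAC and 39751, 39188 and 31284 with DCAA, against 35168 and 30619 in corn oil. The groups overlapped. Gpx1 stood at 0.16 in log2 with DCAC (interval -0.20 to 0.52) and 0.15 with DCAA (interval -0.21 to 0.52), and with quantile normalization it was -0.045 and -0.13, so that its direction depends on the scaling. With the ratio block it turned to -0.10 with DCAA.

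The compounds were compared with each other at the same dose and time, as 1 pair. The question is whether the chloride and the anhydride act differently on these genes. Txnrd1 gave the widest gap relative to its error, with all 3 DCAC arrays above all 3 DCAA arrays, where 7.25% of all genes had DCAC above DCAA in this way and 7.08% below. DCAC minus DCAA came to 0.30 on the log2 scale, with an interval of -0.019 to 0.62 and a limma adjusted p of 0.547. By its dimmer probe set it was 1.69 (interval 0.56 to 2.82, adjusted p = 0.451), with overlapping groups.

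The other 9 genes overlapped between the compounds. The difference was -0.15 for Gclm (interval -0.43 to 0.14), 0.10 for Nqo1 (interval -0.32 to 0.53) and 0.20 for Hmox1 (interval -0.61 to 1.01). For Nfe2l2, Gpx1 and Cat it lay between -0.016 and 0.0035. None passed. By the brightest probe sets in the fit without a block, the intervals bound the difference within a 2.01-fold ratio for Hmox1 and less for the rest. With the ratio block the Hmox1 interval was -1.10 to 1.32 in log2. These bounds do not show that the compounds act alike.

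Lists of related genes set the 10 in their pathway, with 104 genes in all, 96 on the array with a probe set of 1 symbol and 89 above the filter. None of the 89 passed in any of the 4 comparisons. With both compounds together 14 of the 89 had an unadjusted p under 0.05, 7 higher and 7 lower, or 15.73%, where 4.77% of all genes were higher and 3.23% lower. The lists were chosen with earlier results of these data known, and all these differences share the same 2 corn oil arrays. This count and those by list below therefore describe the lists and do not test them. The lists differed in direction, as the plot of related gene lists shows.

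**Figure D4:**
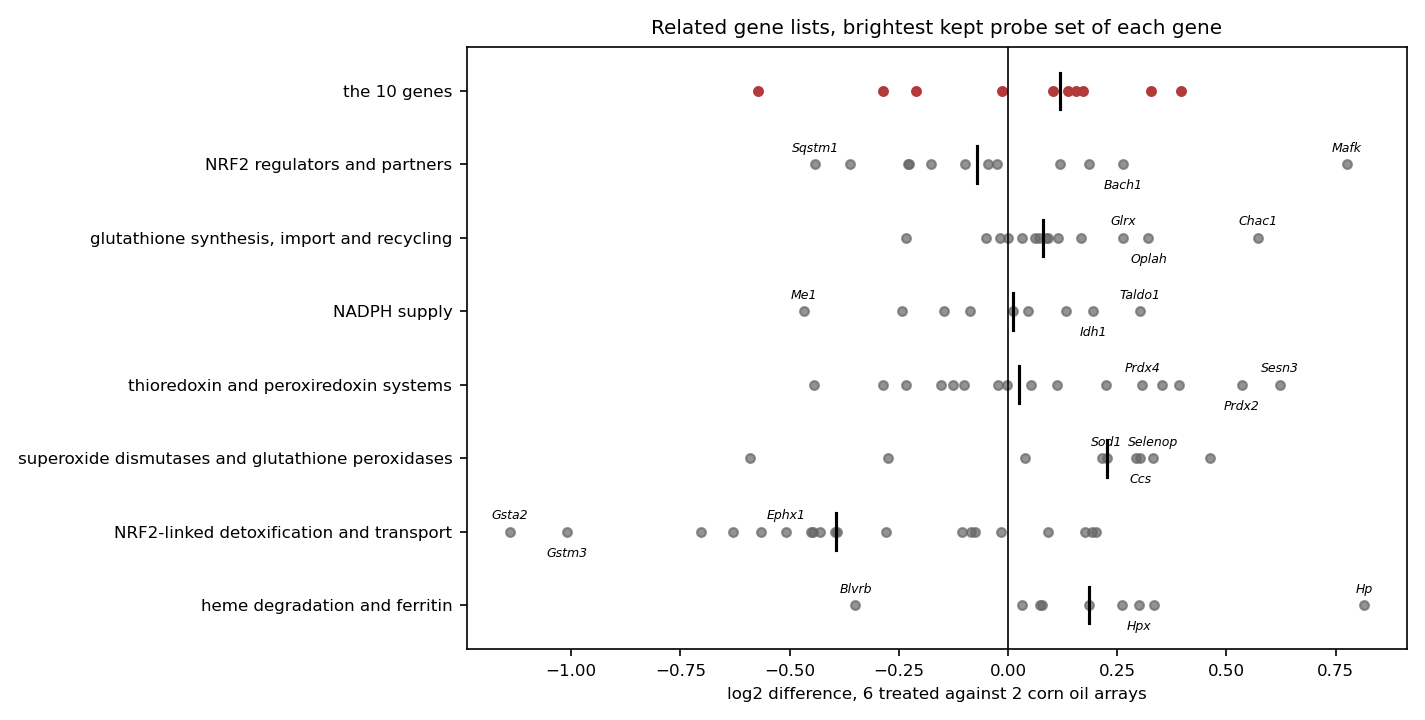
Log2 difference of each listed gene between 6 treated and 2 corn oil arrays, 1 row per list, with a black bar at the median and the 10 genes of the report on top. The detoxification and transport list lies lowest, with a median of -0.39. The dismutase and peroxidase list, which also holds Ccs, Selenop, Pon1 and Park7, lies highest, with a median of 0.23.

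Regulators and partners of NRF2 had a median of -0.072 over 12 genes, 4 higher and 8 lower. Sqstm1, which encodes p62, a KEAP1-binding autophagy receptor, read 10949, 10486 and 10341 with DCAC and 10316, 10589 and 7656 with DCAA, against 13944 and 13189 in corn oil. All treated arrays were below both corn oil arrays, and the difference for both compounds was -0.44 (limma adjusted p = 0.556). Mafk, a small MAF partner, stood at 0.78 (adjusted p = 0.717) with corn oil arrays of 153 and 413, too far apart to separate from the treated ones. Bach1, the repressor of Hmox1, read 1675, 1516 and 1839 with DCAA and 1205 and 1284 in corn oil, a difference of 0.43 (adjusted p = 0.324), and stood at 0.098 with DCAC.

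Genes of the thioredoxin and peroxiredoxin systems had a median of 0.025 over 16 with both compounds. An unadjusted p under 0.05 was reached by 4 of the 16, all higher, where 4.77% of all genes were higher and 3.23% lower. Prdx2, a cytosolic peroxiredoxin, read 8129, 7259 and 8647 with DCAC and 8077, 8556 and 7605 with DCAA, against 5256 and 5843 in corn oil. Every treated array was well above both corn oil arrays. Its difference was 0.53 with DCAC (SE 0.14, limma adjusted p = 0.602), 0.54 with DCAA (SE 0.14, 0.189) and 0.54 with both (SE 0.13, 0.245). Sesn3, a sestrin, read 2635, 2738 and 3753 with DCAC and 3845, 3377 and 3453 with DCAA, against 1963 and 2296 in corn oil, a difference of 0.50 with DCAC and 0.74 with DCAA (adjusted p = 0.919 and 0.165). Prdx4, the peroxiredoxin of the endoplasmic reticulum, stood at 0.31 for both compounds (adjusted p = 0.648), also with no overlap.

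The list of superoxide dismutases and glutathione peroxidases other than the members also holds Ccs, Selenop, Pon1 and Park7. With both compounds it had a median of 0.23 over 9 genes, 7 higher and 2 lower. Of the dismutases and peroxidases themselves, Sod1 stood at 0.23, Gpx7 at 0.46, Gpx4 at 0.038, Sod3 at -0.27 and Gpx2 at -0.59. Sod1, the cytosolic copper-zinc enzyme, read 27972 to 31889 with DCAC and 27373 to 29590 with DCAA, against 24616 and 25380 in corn oil. Ccs, its copper chaperone, read 9186 to 12182 with DCAC and 8890 to 10879 with DCAA, against 8194 and 8163. In both genes all 6 treated arrays were above both corn oil arrays, with differences of 0.23 and 0.30 (limma adjusted p = 0.735 and 0.688). Selenop, the selenium transport protein secreted by hepatocytes, stood at 0.33 (0.652) with overlap. The 2 lower genes, Gpx2 and Sod3, stood at -0.82 and -0.53 with DCAC (limma adjusted p = 0.967 for each). Their DCAC arrays all lay below both corn oil arrays, and their DCAA arrays overlapped corn oil.

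The list of detoxification and transport genes linked to NRF2 lay lowest, with a median of -0.20 with DCAC, -0.31 with DCAA and -0.39 with both over 20 genes, 16 of them lower with both. An unadjusted p under 0.05 with both compounds was reached by 6 of the 20, all lower, where 3.23% of all genes were lower and 4.77% higher, and none passed. Gstm3, a mu class glutathione transferase, read 3178, 2010 and 2576 with DCAC and 2571, 2320 and 1828 with DCAA, against 4513 and 5071 in corn oil. All 6 treated arrays were below, and the difference was -0.91 with DCAC (SE 0.21, limma adjusted p = 0.392) and -1.11 with DCAA (SE 0.21, 0.0938). Ephx1, microsomal epoxide hydrolase, stood at -0.51 with both (adjusted p = 0.559), at 7193 to 12043 on treated arrays against 12178 and 13833. Gsta2, an alpha class transferase, stood at -1.14 (0.606), with DCAC 1 inside the corn oil range. Probe sets of these transferases may also read their close relatives, which was not tested.

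Genes of glutathione handling had a median of 0.080 over 14, 10 higher and 4 lower. Oplah, 5-oxoprolinase, was above both corn oil arrays on all treated arrays, at 2062 to 3278 against 1985 and 1912, a difference of 0.32 (limma adjusted p = 0.746). Chac1, which degrades glutathione, stood at 0.57 (0.75) and Glrx, glutaredoxin, at 0.26 (0.786), both with overlap. Genes that supply NADPH had a median of 0.010 over 9. Me1, malic enzyme, stood at -0.47 (0.748), Taldo1, transaldolase, at 0.30 (0.746) and Idh1 at 0.19 (0.816).

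The list of heme degradation and ferritin also holds Alas1, Fech, Slc40a1, Hp and Hpx. With both compounds it had a median of 0.19 over 9 genes, 8 higher and 1 lower. Of the genes that fit its name, Hmox2 stood at 0.19, Blvra at 0.033, Fth1 at 0.26 and Blvrb at -0.35. Hp, haptoglobin, an acute phase protein that binds free hemoglobin, read 41106, 50261 and 58092 with DCAC and 51613, 54761 and 60669 with DCAA, against 26984 and 32791 in corn oil. All treated arrays were above both corn oil arrays. The difference was 0.73 with DCAC (limma adjusted p = 0.45) and 0.90 with DCAA (0.0938). Hpx, hemopexin, stood at 0.30 with both (0.746). Blvrb, biliverdin reductase B, which acts after heme oxygenase, stood at -0.35 (0.717). Beside these lists, the summed hepatocyte markers were 591671 to 650017 with DCAA and 461999 to 620856 with DCAC, against 478609 and 479351 in corn oil, and their part was not tested.

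Genes with a pattern like those of the 3 most variable members were named by Pearson's r over the 8 arrays among 11621 genes, as a description. For Hmox1 they were Acox2 (r = 0.95), Arap2 (0.95) and Slc8b1 (0.94). For Txnrd1 they were Mmadhc (0.99), Srprb (0.98) and Nsun4 (0.98), all with DCAA 3 as their lowest array. For Gclc they were Katnbl1 (0.98), Kdm3a (0.92) and Arfgap1 (0.92), all with control 1 highest and DCAC 1 lowest. These values come from the same 8 arrays and were not tested.

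On control 2, 6 of the 10 genes lay outside the range of the other 8 arrays. Nqo1 read 1200, or 2.34 times the mean of controls 1 and 3. Gclm at 2622, Hmox1 at 166, Cat at 14967 and Gpx1 at 20917 lay below all 8 other arrays, and Srxn1 at 1022 above them. With control 2 in the fit the difference of Nqo1 turned to -0.029 with DCAC and -0.13 with DCAA, and that of Gclm grew to 0.50 and 0.65 (limma adjusted p = 0.765 and 0.334). Hmox1 then stood at 0.030 with DCAC, Cat at 0.23 and 0.24 with DCAC and DCAA, and Gclc at 0.021 with DCAA, each turned in sign, and Gpx1 at 0.37 with each compound.

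**Figure D5:**
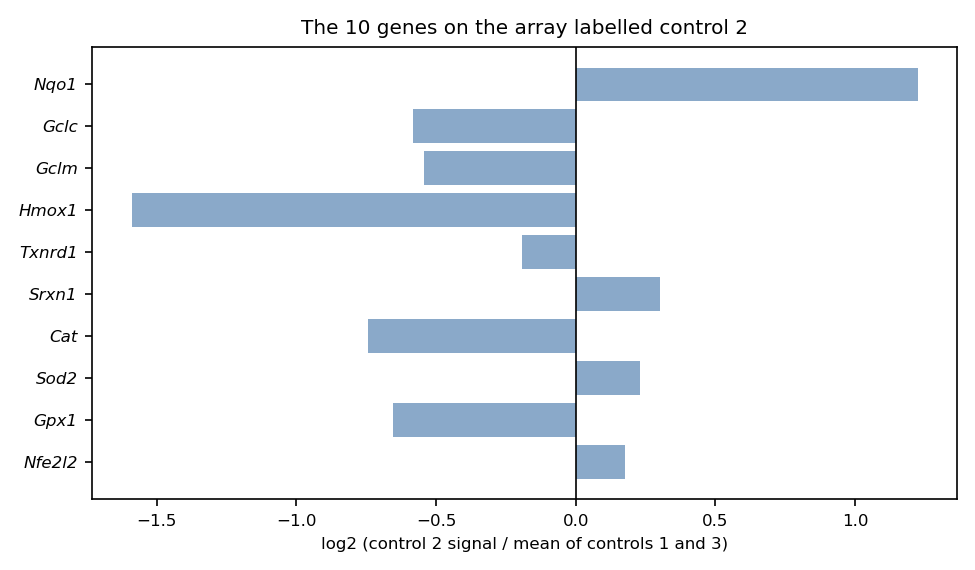
Log2 ratio of the signal on the array labelled control 2 to the mean of controls 1 and 3 for the 10 genes. Nqo1 stands out on the high side, at 2.34 times that mean, and Hmox1 on the low side, at 0.332 of it.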

How the data were processed

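RNA of 9 samples labelled as liver was read on Affymetrix arrays, 1 per mouse. The authors deposited a signal intensity for each probe set, linear and made with GCOS per the submitters' processing notes, with no version given in the sources used here. On each array the mean, leaving out the top and bottom 2%, was 500.0. The manufacturer's 64 control probe sets stayed out of the tests. Of the rest, 34945 had 1 gene symbol, 932 several and 9160 none.

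Signals below the 25th percentile of an array were raised to it before log2 was taken. The 8 arrays without control 2 were fitted in R 4.3.3 by limma 3.58.1, using lmFit and a trended eBayes, as 3 groups in 1 model and, for both compounds together, as 2 groups. Tests were two-sided, and Benjamini-Hochberg adjustment covered 24531 probe sets. The fitting code was checked on simulated data with independent noise and a known added change. That check holds no array effects such as the 3'/5' ratio, so it does not measure false calls in these data. Precision is limited by the number of arrays, and the median 95% interval against corn oil reached 1.56-fold either way.

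The members and lists were chosen with earlier results of these data known. Named genes were all members, any listed gene that passed, and from each list up to 3 more with the smallest p for both compounds together. A few further genes are named to show what a list holds. Pattern likeness was searched for the 3 members of largest SD. Alternatives changed the arrays used, scaling, floor, filter, trend and blocks, and left out each array in turn.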

Additional observations from a re-analysis of the deposited data

Results flagged for a closer look

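The array labelled control 2 was left out of the 8-array fit, and 3 of its values lay above those of both other corn oil arrays and of all treated livers. Nqo1 read 1200 there, against 522 and 505 on controls 1 and 3. Srxn1 read 1021.5, against 893 and 765. The summed kidney tubule markers reached 136694.1, against 2101 and 2305.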

How the results depend on the processing

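No member passed under any of the 16 alternative settings, and the lowest adjusted p (limma) was 0.17. Of 640 member values 589 kept their sign and 51 turned, in 23 of 40 results, and the cause was not tested. Probe sets that passed over the whole table numbered 8 for DCAC, 20 for DCAA, 1 for DCAC against DCAA and 18 for both compounds. In that order they numbered 0, 0, 0 and 0 with all 9 arrays (1336, 3025, 1446 and 2584 at an unadjusted p under 0.05). With no filter there were 1, 4, 0 and 18, and without the eBayes trend 0, 0, 0 and 2. With the 3'/5' ratio as a block there were 2, 0, 3 and 5, and with a common median DCAA had 9 and DCAC against DCAA 0. In the ratio block the fit for both compounds compares only DCAC 1 and DCAC 2 with corn oil, so it holds no estimate for DCAA.

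With all 9 arrays Nqo1 turned to -0.029 with DCAC, -0.13 with DCAA and -0.081 with both, and Cat to 0.225, 0.24 and 0.23. Hmox1 turned to 0.030 with DCAC, and Gclc to 0.021 and Sod2 to -0.021 with DCAA. With the ratio block Cat became 0.17 with DCAC, 0.57 with DCAA and 0.17 with both, where the value for both only repeats that for DCAC. Sod2 became -0.11 and Gpx1 -0.10 with DCAA, and, for DCAC against DCAA, Gclc 0.28 and Nfe2l2 0.0011. With quantile normalization Gpx1 became -0.045 with DCAC, -0.13 with DCAA and -0.090 with both, and for DCAC against DCAA Srxn1 became -0.012 and Cat 0.040. With a common median Cat became 0.049 with DCAC, Sod2 -0.058 with DCAA and, for DCAC against DCAA, Gclc 0.11, Gclm 0.041, Cat 0.17 and Nfe2l2 0.18.

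Leaving out each array in turn gave 2 to 14 probe sets for DCAC, 3 to 87 for DCAA, 0 to 2 for DCAC against DCAA and 4 to 27 for both. With DCAC it gave Hmox1 -0.97 to 0.031, Cat -0.17 to 0.17 and Nfe2l2 -0.075 to 0.35. With DCAA it gave Cat -0.073 to 0.061, Sod2 -0.068 to 0.18 and Nfe2l2 -0.074 to 0.35. For DCAC against DCAA it gave Gclc -0.26 to 0.11, Hmox1 -0.13 to 0.56, Cat -0.16 to 0.18, Gpx1 -0.11 to 0.12 and Nfe2l2 -0.12 to 0.085. With both it gave Cat -0.081 to 0.065, Sod2 -0.023 to 0.23 and Nfe2l2 -0.075 to 0.35.

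The replicate block gave 7, 17, 1 and 7 probe sets. Arrays of the same number had correlated deviations of -0.041 to 0.028 over 7 pairs, those of other numbers -0.066 to 0.074, and 1 of 8 arrays correlated best with its own number, so no pairing of mice was assumed.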
